A study of Mus musculus with 8 samples.

Results

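The genes described here are 9 genes of macrophages and of the complement starter C1q, of 16902 gene symbols in all. They are C1qa, C1qb and C1qc, the 3 chains of C1q, and Mrc1, Lyz2, Adgre1, Cd14, Csf1r and Cd68. They were taken by symbol from both deposited tables of normalised counts, and all 9 were found in both. The RNA came from the epidermis of CD1 mouse back skin, peeled off the dermis with the enzyme dispase, and the libraries were stranded and made from polyadenylated RNA. There were 8 libraries in 4 groups, each with 1 female and 1 male: labelled Ovol1 knockouts (Ovol1 -/-) given IMQ, controls (Ovol1 +/+) given IMQ, untreated labelled knockouts (Ovol1 -/-) and untreated controls (Ovol1 +/-). Controls under IMQ and untreated controls thus carried different Ovol1 genotypes, and the mice's age and the dose and duration of IMQ were not stated in the labels. IMQ is the labels' abbreviation. With 1 animal of each sex per group, p-values measure the spread between these libraries, and sex is part of that spread.

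Macrophages are phagocytes that live in most tissues, in skin mainly in the dermis, while the epidermis holds Langerhans cells, which share several genes with macrophages. C1q is built from equal numbers of A, B and C chains, is made largely by macrophages and dendritic cells rather than by the liver, and starts the classical complement pathway when it binds antibody complexes or dying cells. Of the other members, Csf1r encodes the receptor for the growth factors CSF1 and IL-34, Adgre1 an adhesion receptor long used as a surface marker of mouse macrophages, Mrc1 the mannose receptor CD206, Cd14 a co-receptor for lipopolysaccharide, Cd68 a lysosomal membrane protein and Lyz2 a lysozyme.

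Reads recovered from the deposited values numbered 28.6 to 43.1 M per library. Ovol1 itself, the gene named in the genotype labels, stood at 13457 and 13077 normalised counts in the female and male labelled knockouts given IMQ and at 7635 and 9556 in the controls given IMQ. Untreated, it stood at 27433 and 26601 in the labelled knockouts and at 16629 and 14582 in the controls. Its log2 fold change was 0.64 under IMQ (SE 0.15, limma adjusted p = 0.0880) and 0.79 untreated (SE 0.15, limma adjusted p = 0.346). The level thus ran against the label with and without IMQ, although a count over a whole gene does not show whether a part of it is deleted, and the groups are called labelled knockouts throughout. Keratinocyte marker sums were 623922 to 1149090 normalised counts over the libraries. Cd207, the Langerhans cell lectin langerin, stood between 7813 and 18258 (chosen after its values were seen), so that defining markers of epidermis were present in every library.

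In the mouse assembly GRCm38 (mm10) with GENCODE vM21, the 3 C1q genes lay side by side on the minus strand of chromosome 4, C1qb at chr4:136880129-136886187, C1qc at chr4:136889804-136893065 and C1qa at chr4:136895917-136898803. Mrc1 lay on the plus strand at chr2:14229392-14332057, Adgre1 on the plus strand at chr17:57358691-57483527, Lyz2 on the minus strand at chr10:117277331-117282321 and Cd68 on the minus strand at chr11:69664213-69666153. A microRNA gene, Mir511, lay within Mrc1, and the C1q genes overlapped no other annotated gene.

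Promoter sequence is shown for 4 members whose IMQ values lay apart between the genotypes (described next). It was read from the RefSeq promoter table of GRCm38.p6, and the bases upstream of the annotated starts were kept. Capitals mark the core GAGGAA, read on either strand, of the site of PU.1, a transcription factor of the myeloid lineage. The printed stretches are Mrc1 at chr2:14229164-14229391 on the plus strand, C1qb at chr4:136886201-136886450, C1qc at chr4:136893066-136893164 and Lyz2 at chr10:117282322-117282522, the last 3 on the minus strand.
Mrc1: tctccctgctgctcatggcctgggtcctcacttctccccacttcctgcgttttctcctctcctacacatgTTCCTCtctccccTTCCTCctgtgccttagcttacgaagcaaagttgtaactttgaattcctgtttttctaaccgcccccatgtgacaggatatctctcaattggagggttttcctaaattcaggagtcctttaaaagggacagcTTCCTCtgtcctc
C1qb: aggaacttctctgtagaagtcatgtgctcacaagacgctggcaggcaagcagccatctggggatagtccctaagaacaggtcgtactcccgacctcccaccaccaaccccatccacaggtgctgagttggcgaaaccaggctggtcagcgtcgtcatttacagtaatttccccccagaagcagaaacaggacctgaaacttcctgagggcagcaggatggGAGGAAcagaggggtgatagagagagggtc
C1qc: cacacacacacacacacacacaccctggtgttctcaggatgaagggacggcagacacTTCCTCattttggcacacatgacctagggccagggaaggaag
Lyz2: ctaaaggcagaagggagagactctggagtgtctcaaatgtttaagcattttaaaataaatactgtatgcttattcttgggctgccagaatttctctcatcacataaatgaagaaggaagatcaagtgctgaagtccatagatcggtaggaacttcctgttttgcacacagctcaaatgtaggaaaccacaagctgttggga
The core occurred at 3 places upstream of Mrc1 and at 1 place each upstream of C1qb and C1qc, and these letters were not in the Lyz2 window. Windows were read for 5 members, the fifth being Cd68, and 4 of the 5 held the core within 250 bases upstream. C1qa and Adgre1 had no entry in the promoter table, and Cd14 and Csf1r were left out, so the count does not cover all members. The same letters were in 7639 of 32851 windows of that length over all genes in the table (23.3%). A match of 6 letters describes the sequence and does not show binding.

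Under IMQ, the C1q chain genes, Mrc1, Lyz2, Adgre1 and Cd14 stood lower in both labelled knockouts than in both controls, while Csf1r and Cd68 overlapped between the genotypes. The spread between the female and the male of a group was wide as well, and no member passed the limma test after adjustment over all genes. The plot of normalised counts by library shows all 9 genes.

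**Figure D1:**
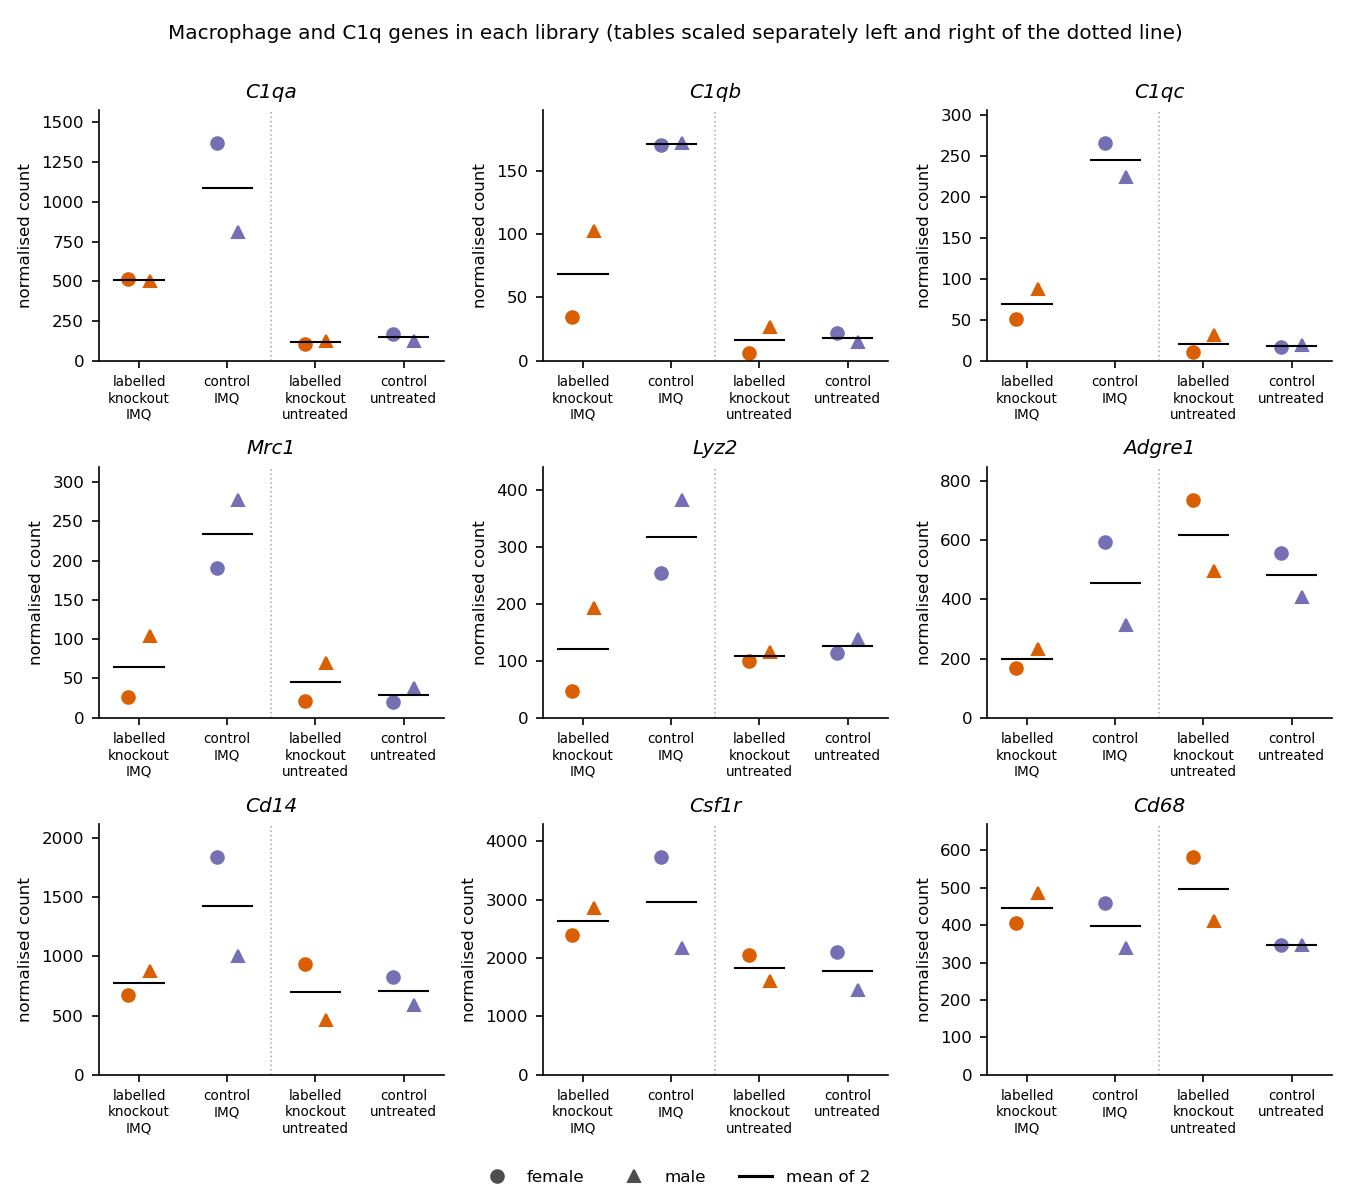
Normalised counts (vertical axes, starting at 0) of the 9 genes in the 8 libraries by group, with circles for females, triangles for males, a black line for the mean of 2 and a dotted line between the separately scaled tables. Under IMQ, C1qa stood at 515 and 503 in the labelled knockouts against 1372 and 807 in the controls, while Cd68 overlapped between the genotypes.

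C1qa, the A chain gene, stood at 515 and 503 normalised counts in the female and male labelled knockouts given IMQ and at 1372 and 807 in the female and male controls. The labelled knockouts were close to each other, both below both controls, and the female control was the highest library of all. For C1qa the log2 fold change was -1.05 (SE 0.28, limma adjusted p = 0.111), lower in both sexes. C1qb, the B chain gene, stood at 34.8 and 103 in the labelled knockouts and at 171 and 172 in the controls. Here the controls were alike and the labelled knockout female was well below the male, with a log2 fold change of -1.50 with an SE of 0.71 (limma adjusted p = 0.261). C1qc, the C chain gene, stood at 50.7 and 87.5 in the labelled knockouts and at 266 and 224 in the controls. Both labelled knockouts lay below both controls by a margin wider than the gap within either group, a log2 fold change of -1.86 with an SE of 0.51 (limma adjusted p = 0.119).

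Mrc1, the mannose receptor gene that marks many tissue macrophages, stood at 25.8 and 104 normalised counts in the female and male labelled knockouts given IMQ and at 190 and 277 in the controls. The groups did not overlap, and the female was the lower animal in each. For Mrc1 the log2 fold change was -2.12 (SE 0.75, limma adjusted p = 0.171), and it was the one member that passed in the limma fit with the sex-matched replicate block (adjusted p = 0.0494). With edgeR and the same block its adjusted p was 0.0543, above the threshold, and 0 members were called. Lyz2, the lysozyme gene of macrophages and neutrophils, stood at 46.7 and 193 in the labelled knockouts and at 253 and 382 in the controls, and the groups again did not overlap. Its log2 fold change was -1.70 (SE 0.58, limma adjusted p = 0.164). Without the male labelled knockout given IMQ it was -2.71 and passed (limma adjusted p = 0.0219), and without the female it was -0.69 (limma adjusted p = 0.491). Each of these fits leaves 1 library in that group, which is assumed to vary like the other groups.

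Adgre1, the adhesion receptor gene, stood at 169 and 231 normalised counts in the female and male labelled knockouts given IMQ and at 596 and 314 in the controls. Both labelled knockouts were below both controls, and the sexes of the control group lay far apart, for a log2 fold change of -1.13 with an SE of 0.35 (limma adjusted p = 0.139). Cd14 (chr18:36725067-36726798, minus strand), which hands lipopolysaccharide to the TLR4 complex, stood at 671 and 874 in the labelled knockouts and at 1843 and 1004 in the controls. The male control lay near the labelled knockouts and the female control stood apart, with a log2 fold change of -0.83 with an SE of 0.39 (limma adjusted p = 0.264). Csf1r (chr18:61100598-61132149, plus strand), which macrophages, monocytes and Langerhans cells all use, stood at 2401 and 2861 in the labelled knockouts and at 3739 and 2173 in the controls. The controls lay on either side of the labelled knockouts, and the log2 fold change was -0.12 (SE 0.29, limma adjusted p = 0.838). Cd68, the lysosomal membrane glycoprotein, stood at 406 and 487 in the labelled knockouts and at 459 and 339 in the controls, overlapping values with a log2 fold change of 0.17 with an SE of 0.23 (limma adjusted p = 0.695).

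Csf1r shared 873 of its 5774 exon bases with Hmgxb3 on the other strand. The libraries were stranded, but whether the counting used strand was not stated, so reads of that stretch may belong to either gene.

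Counted over the 9 members, 0 passed the limma test under IMQ, against 0.438% of the 14614 genes tested. At an unadjusted p under 0.05, 5 members were lower (C1qa, C1qc, Mrc1, Lyz2 and Adgre1), where 11.9% of all genes were lower at that p. With edgeR on the recovered reads 0 passed (0.205% of all genes) and 5 had an unadjusted p under 0.05 (21.8% of all genes). DESeq2 on the same reads called 3 members lower, C1qc (adjusted p = 0.00624), C1qa (adjusted p = 0.00941) and Adgre1 (adjusted p = 0.0272), where it called 4.52% of all genes lower. The fit with the replicate block called 1 member lower, Mrc1, where 1.86% of all genes were called lower. The log2 fold change was negative in 8 of 9 members, as in 51.3% of all genes. In 7 of the 9 genes both labelled knockouts lay below both controls, an arrangement seen in 26.4% of all genes. The median log2 fold change was -1.13 over the members and -0.01 over all genes. In RNA from a bulk tissue, fewer cells of a type and less RNA per cell cannot be told apart.

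In untreated epidermis no member stood lower in both labelled knockouts than in both controls, and the C1q and Mrc1 counts were low. C1qa stood at 107 and 125 normalised counts in the female and male labelled knockouts and at 169 and 123 in the controls. C1qb was at 6.22 and 26.8 in the labelled knockouts and at 21.6 and 15.03 in the controls, and C1qc at 10.4 and 30.9 in the labelled knockouts and at 16.4 and 19.3 in the controls. For all 3 chain genes the groups overlapped, and the female labelled knockout was the lowest library of the 4. Those values rest on few molecules, since C1qb had 6 and 26 reads in the labelled knockouts and 25 and 14 in the controls. Mrc1 was at 21.8 and 69.0 in the labelled knockouts and at 19.9 and 37.6 in the controls, with the male higher in each group. Lyz2 was at 99.5 and 115 in the labelled knockouts and at 113 and 137 in the controls, and these too overlapped.

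The remaining 4 genes had higher counts in untreated epidermis, with the female at or above the male in each group. Adgre1 stood at 738 and 498 normalised counts in the female and male labelled knockouts and at 556 and 408 in the controls. Cd14 stood at 934 and 467 in the labelled knockouts and at 825 and 588 in the controls. Csf1r stood at 2057 and 1614 in the labelled knockouts and at 2099 and 1448 in the controls, and all 3 genes overlapped between the genotypes. Cd68 alone did not overlap, at 583 and 411 in the labelled knockouts and at 347 and 347 in the controls. Its log2 fold change was 0.50 (SE 0.23, limma adjusted p = 1.00), and the other 8 ranged between -0.43 for C1qb (SE 0.71) and 0.49 for Mrc1 (SE 0.75).

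Of the 9 members, 0 passed in untreated epidermis with limma (0% of all genes), and 0 had an unadjusted p under 0.05, against 4.46% of all genes. With edgeR (0% of all genes), DESeq2 (0.595%) and the replicate block (0.0547%), 0 members passed as well. Both labelled knockouts lay above both controls in 1 member (17.4% of all genes) and below them in 0 (16.4%). The median log2 fold change was 0.02 over the members.

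**Figure D2:**
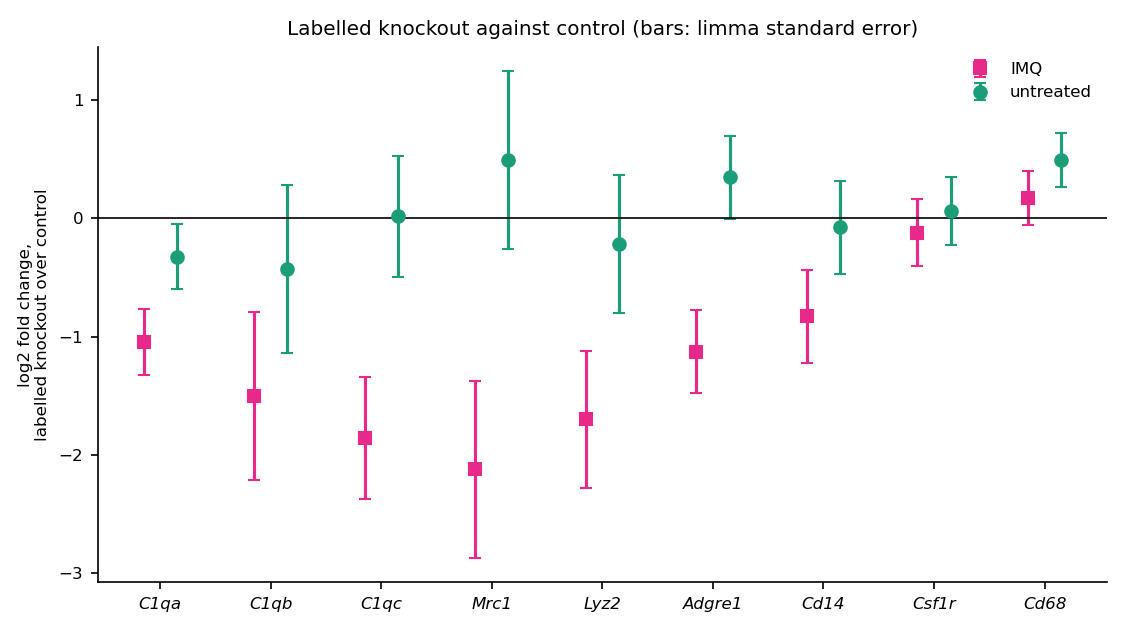
Log2 fold change of the labelled knockouts over the controls (vertical axis) for each gene under IMQ (squares) and untreated (circles), with bars of 1 limma standard error. The IMQ value lies below the untreated value in all 9 genes, the widest gaps being those of Mrc1 and C1qc, and Csf1r and Cd68 lie nearest to 0 under IMQ.

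The difference between these genotype effects, IMQ minus untreated, was negative in 9 of 9 members, as it was in 52.7% of all genes. It was -2.61 for Mrc1 (SE 1.06, limma adjusted p = 0.481), -1.87 for C1qc (SE 0.73, limma adjusted p = 0.476) and -1.47 for Adgre1 (SE 0.49, limma adjusted p = 0.476). Those 3 were the members with an unadjusted p under 0.05, where 6.02% of all genes had such a p on the negative side. The smallest was that of Csf1r, at -0.18 (SE 0.40). With limma 0 members passed (0% of all genes), and with edgeR (0%), DESeq2 (0.671%) and the replicate block (0%) 0 passed as well. The effect was therefore not shown to differ between treated and untreated skin for any member, and since the controls were Ovol1 +/+ under IMQ and Ovol1 +/- untreated, treatment and control genotype cannot be told apart in it.

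Set against untreated epidermis of the same label, IMQ libraries held more C1q RNA in both genotypes. These values are CPM, the recovered reads scaled to library size, and they carry no test because the tables were separate and the control genotype differed. Folds were taken between group means on the log2 scale after 0.5 CPM was added to every value. The addition shrinks them below the ratio of the CPM themselves, most for genes of low CPM such as C1qb, C1qc and Mrc1. C1qa stood at 16.7 and 16.5 CPM in the female and male labelled knockouts given IMQ, against 2.82 and 3.28 CPM in the untreated labelled knockouts, a 4.82-fold difference. In the controls it stood at 45.0 and 26.2 CPM given IMQ, against 4.53 and 3.32 CPM untreated, a 7.94-fold difference. The ranges lay far apart in both genotypes. For C1qb the fold was 2.80 in the labelled knockouts, against 6.17 in the controls, and for C1qc it was 2.67 in the labelled knockouts, against 8.65 in the controls. All 3 chain genes were higher in both IMQ libraries than in both untreated libraries of either genotype. The share of all genes lying apart in this way is not given, here or for Mrc1 and Lyz2 below. Between the genotypes under IMQ, 26.4% of all genes lay apart on the lower side alone, so such an arrangement of 2 libraries per group says little by itself.

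Mrc1 stood at 0.837 and 3.40 CPM in the female and male labelled knockouts given IMQ, against 0.575 and 1.82 CPM untreated, and these overlapped. In the controls it stood at 6.23 and 9.01 CPM given IMQ, against 0.532 and 1.01 CPM untreated. That was a 6.40-fold difference after 0.5 CPM was added, with no overlap. Lyz2 likewise overlapped in the labelled knockouts (1.12-fold) and lay apart in the controls (2.77-fold). Adgre1 was the member that stood lower with IMQ, at 5.47 and 7.58 CPM in the labelled knockouts given IMQ, against 19.5 and 13.1 CPM in the untreated labelled knockouts, or 0.421-fold. In the controls Adgre1 overlapped at 1.10-fold. Cd14 was 1.42-fold in the labelled knockouts and 2.34-fold in the controls. Csf1r was 1.77-fold in the labelled knockouts and 1.98-fold in the controls, and Cd68 was 1.12-fold in the labelled knockouts and 1.36-fold in the controls.

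At least a 2-fold difference was reached by 3 members on the higher side in the labelled knockouts (11.7% of all genes) and by 1 on the lower side (13.1%). In the controls it was reached by 6 members on the higher side (7.79%) and by 0 on the lower side (7.04%). With 2 CPM added instead of 0.5, the labelled knockouts had 2 such members in place of 4. The median of all genes was within 0.03 of 0 on the log2 scale in both genotypes and under both scalings tried.

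**Figure D3:**
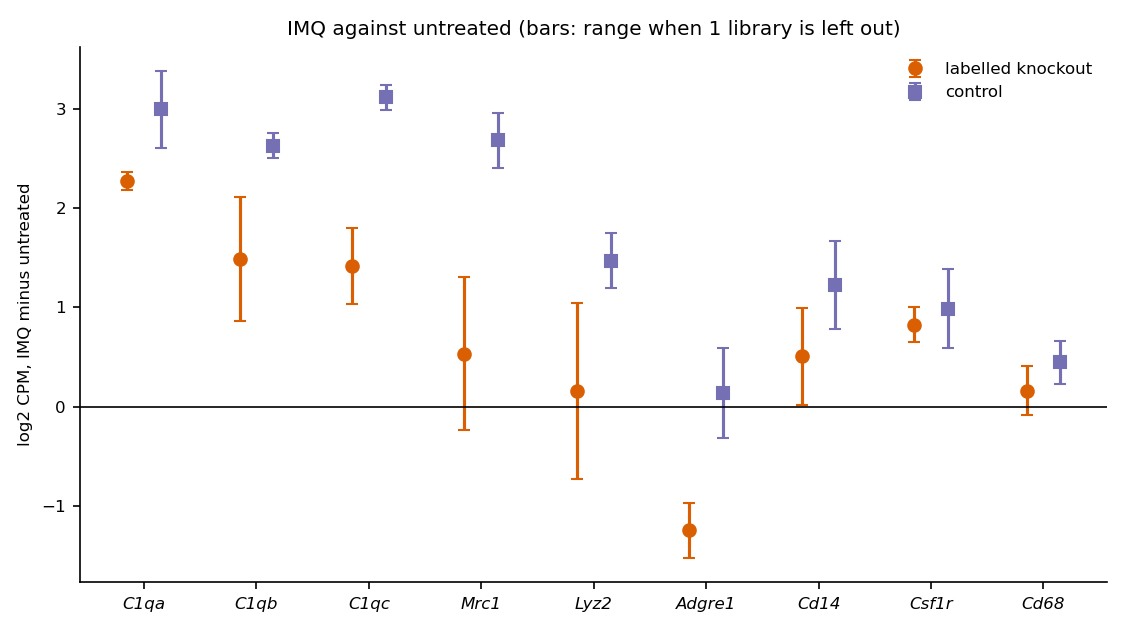
Log2 difference in CPM, IMQ minus untreated (vertical axis), in labelled knockouts (circles) and controls (squares), with bars that span the values when 1 library is left out and no test. With 0.5 CPM added to every value, C1qa differs most among the labelled knockouts (2.27) and C1qc among the controls (3.11). The added amount is of the size of the untreated CPM of C1qb and C1qc and shrinks their differences. In the labelled knockouts the order of the chain genes therefore depends on it. Adgre1 in the labelled knockouts is the one value whose bar lies below 0.

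Levels can be compared between genes per length, as RPKM, the recovered reads scaled to exon length and library size. Under IMQ, C1qa came first in both genotypes, with a mean of 15.4 RPKM in the labelled knockouts and 33.6 RPKM in the controls. Csf1r at 14.3 RPKM and Cd14 at 14.0 RPKM followed in the labelled knockouts, and their ranges overlapped that of C1qa or of each other. In the controls Cd14 at 26.4 RPKM and Csf1r at 16.4 RPKM followed, again with overlapping neighbours. Cd68 was the fourth gene in both genotypes, at 11.2 RPKM in the labelled knockouts and 10.1 RPKM in the controls. Lyz2, C1qb, Adgre1 and C1qc came next in that order, and Mrc1 came last, at 0.317 RPKM in the labelled knockouts and 1.16 RPKM in the controls, below C1qc without overlap.

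Untreated, Cd14 had the highest mean, 11.1 RPKM in the labelled knockouts and 11.1 RPKM in the controls, and its range overlapped that of the next gene in both. In the male labelled knockout Cd14 (7.49 RPKM) lay below Cd68 (9.09 RPKM) and Csf1r (7.77 RPKM). Cd68 (10.9 RPKM in the labelled knockouts, 7.52 RPKM in the controls) and Csf1r (8.77 RPKM in the labelled knockouts, 8.35 RPKM in the controls) came next, their order differing between the genotypes. C1qa was the fifth gene, at 3.07 RPKM in the labelled knockouts and 3.83 RPKM in the controls, and C1qb, C1qc and Mrc1 were the lowest 3, each under 1 RPKM. By group means, then, Csf1r, Cd14 and Cd68 were the upper 3 in untreated epidermis and C1qa came first under IMQ. In the male labelled knockout given IMQ, C1qa (14.96 RPKM) lay below Cd14 (15.6 RPKM) and Csf1r (15.3 RPKM).

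The 3 chains are needed in equal numbers in the protein, and their RNA levels were unequal in every library. Per length, C1qa exceeded C1qb by 4.87- to 17.96-fold and C1qc by 6.70- to 19.2-fold. C1qc stood at 0.428- to 0.939-fold of C1qb, below it in all 8 libraries. That order depends on the exon lengths used, 1931 bases for C1qc and 1088 for C1qb. In reads, C1qc lay below C1qb only in the untreated female control (19 against 25) and the male labelled knockout given IMQ (92 against 108). The C1qa to C1qb ratio was 15.5 and 5.12 in the female and male labelled knockouts given IMQ and 8.41 and 4.90 in the controls given IMQ. Untreated it was 17.96 and 4.87 in the labelled knockouts and 8.20 and 8.59 in the controls. The females of both labelled knockout groups had the 2 highest ratios, at 35 and 6 reads of C1qb. Reads of the 3 genes together numbered 604 and 729 in the labelled knockouts given IMQ and 1971 and 1054 in the controls given IMQ, against 119 and 177 in the untreated labelled knockouts and 240 and 147 in the untreated controls.

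**Figure D4:**
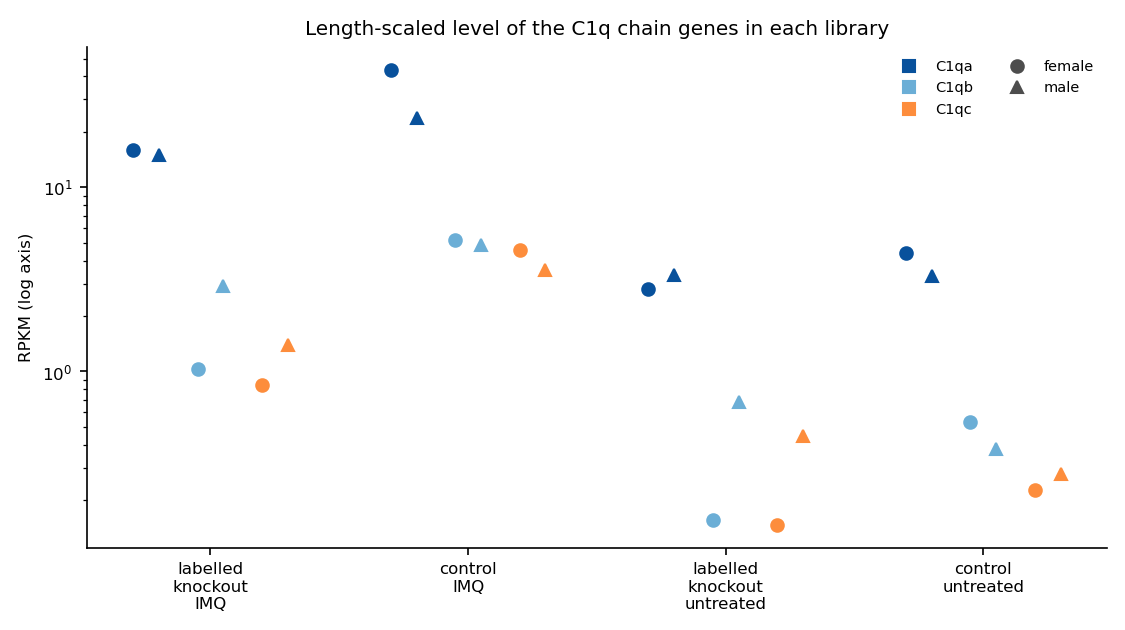
RPKM of C1qa, C1qb and C1qc (vertical axis, log scale) in each library, by group, with females as circles and males as triangles. C1qa lies above the other chains in all 8 libraries, by at least 4.87-fold over C1qb, and C1qc lies below C1qb within each library. The order of C1qc and C1qb depends on the exon lengths used and is not that of the reads in most libraries.

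The other genes of the pathway were read in the same fit. Of 7 tested genes of the classical pathway outside C1q, 7 had a negative log2 fold change under IMQ, with a median of -0.60, and 0 passed with limma (1 at an unadjusted p under 0.05, and 0 with the replicate block). C3, the central complement component, stood at 34.8 and 108 normalised counts in the female and male labelled knockouts given IMQ and at 305 and 325 in the controls. Its groups lay far apart, with a log2 fold change of -2.34 with an SE of 0.51 (limma adjusted p = 0.0818), and DESeq2 called it (adjusted p = 0.00110). It was not called by edgeR (adjusted p = 0.0985), and its log2 value ranged between -3.14 and -1.53 when 1 library was left out, passing without the male labelled knockout given IMQ (limma adjusted p = 0.0211). C1ra and C1s1, the proteases that C1q activates, were at -0.76 (SE 0.35) and -0.60 (SE 0.36), and C2, a source of the C3 convertase, at -0.58 (SE 0.35). In untreated epidermis 4 of the 7 were negative, with a median of -0.12, and C3 was at 0.19 (SE 0.51).

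Of 8 tested complement inhibitors, 8 were negative under IMQ, with a median of -0.42, and 1 passed. That gene was Cd55, whose product speeds the decay of the C3 convertases on the cell surface. Under IMQ, Cd55 fell to 1116 and 1162 normalised counts in the labelled knockouts, against 1923 and 1780 in the controls, a log2 fold change of -0.70 with an SE of 0.10 (limma adjusted p = 0.0454). Each pair of libraries was close, and the groups lay well apart. Its adjusted p was 0.0524 to 0.216 when any 1 library was left out, 0.0591 with edgeR, 0.0285 with the replicate block and 4.3e-05 with DESeq2. In untreated epidermis it stood at 5041 and 5078 in the labelled knockouts and at 6740 and 6967 in the controls, a log2 fold change of -0.44 with an SE of 0.10 (limma adjusted p = 0.479). Serping1, the C1 inhibitor, was under IMQ at -1.23 (SE 0.93, limma adjusted p = 0.466). Serping1 turned with 1 library, and was 0.14 without the female labelled knockout given IMQ.

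Among 8 tested genes of the alternative and terminal pathways, 5 were negative under IMQ (median -0.54) and 0 passed. They included C8g at -1.14 (SE 0.31, limma adjusted p = 0.116) and Cfd, the protease factor D, at -1.27 (SE 0.81). Among 10 complement receptors and binding proteins, 5 were negative (median 0.07) and 0 passed. C5ar1, the receptor for the C5a peptide, was at -1.72 (SE 0.67) on 2.98 and 6.66 normalised counts in the labelled knockouts and 25.7 and 11.4 in the controls. C1qbp, a mitochondrial protein that also binds C1q, was at 0.47 (SE 0.15, limma adjusted p = 0.138) and so ran opposite to the chain genes.

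Of 15 tested genes around CSF1R, 9 were negative under IMQ (median -0.10) and 0 passed. Csf2, the cytokine GM-CSF, was at 2.37 (SE 0.96, limma adjusted p = 0.211), with 884 and 1291 normalised counts in the labelled knockouts and 155 and 273 in the controls. Maf, a transcription factor of macrophages, was at -0.52 (SE 0.14, limma adjusted p = 0.119), and its groups lay apart. Of 13 tested genes around CD14 and Toll-like receptors, 8 were negative (median -0.03) and 0 passed. Ly96, the MD-2 partner of TLR4, was at 1.25 (SE 0.24, limma adjusted p = 0.0714), with 238 and 185 normalised counts in the labelled knockouts and 90.8 and 84.5 in the controls, and it passed with the replicate block (adjusted p = 0.0341). Lbp, which loads lipopolysaccharide onto CD14, was at -1.20 (SE 0.31, limma adjusted p = 0.106). At an unadjusted limma p under 0.05, 3 of the 13 genes were higher, Ly96 among them, and 1 was lower, Lbp. Cd14 itself, which is not among the 13, lay on the lower side.

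Of 15 tested lysosome genes, 11 were negative under IMQ (median -0.27) and 0 passed. Ctsl, a cathepsin, was at -0.90 (SE 0.21, limma adjusted p = 0.0915) and Grn, progranulin, at -0.88 (SE 0.22, limma adjusted p = 0.0964). Cd63, a membrane protein of late endosomes, was at 0.53 (SE 0.12, limma adjusted p = 0.0848), on the same side of 0 as Cd68.

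Other macrophage markers were read as a check on what the 9 genes stand for. Of 33 listed, 32 were in the tables and 26 were tested. Under IMQ 21 of the 26 were negative, with a median of -0.73, and 0 passed with limma (6 lower and 1 higher at an unadjusted p under 0.05). F13a1, the coagulation factor XIII A chain of tissue macrophages, stood at 8.95 and 70.4 normalised counts in the labelled knockouts and at 323 and 175 in the controls (log2 fold change -3.16, SE 0.92, limma adjusted p = 0.126). Fcgr1, the high-affinity IgG receptor, was at -2.09 (SE 0.70, limma adjusted p = 0.157). Retnla, a marker of alternative activation, was at -2.52 (SE 0.86, limma adjusted p = 0.164). Both rest on few reads. In the female and male labelled knockouts given IMQ, Fcgr1 had 4 and 19 reads and Retnla 1 and 14. The controls given IMQ had 37 and 42 reads of Fcgr1 and 30 and 28 of Retnla. Both genes passed the filter on the mean through the IMQ table only. Timd4, a phagocytic receptor of resident macrophages, lay the other way at 2.0 (SE 0.64, limma adjusted p = 0.145). The summed level of the list was 10940 and 11526 in the labelled knockouts given IMQ and 11502 to 16282 in the controls given IMQ, so the sums overlapped. Msr1, Ms4a7 and Folr2 had 0 reads in the female labelled knockout given IMQ, and each untreated library had between 2 and 5 of the listed markers at 0. Of 7 tested monocyte genes, 7 were negative under IMQ (median -0.52) and 0 passed.

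Markers of other cell types were read in the same way. Of 10 tested fibroblast genes, 9 were negative under IMQ (median -1.26) and 0 passed. Their summed level was 5368 and 52003 normalised counts in the female and male labelled knockouts and 8959 and 81710 in the controls, and Col1a1, a collagen gene of dermal fibroblasts, stood at 469 and 14839 in the labelled knockouts and at 1535 and 23560 in the controls. The males were thus far higher than the females in both groups, and the labelled knockout was below the control in each sex. Of 6 tested genes of blood vessel cells, 6 were negative (median -1.79) and 0 passed, with summed levels of 96.4 to 115 in the labelled knockouts and 137 to 983 in the controls. Cdh5, the cadherin of vessel walls, was at -2.17 (SE 0.83, limma adjusted p = 0.192), with 9.94 and 9.51 normalised counts in the labelled knockouts and 114 and 19.4 in the controls, so the female control stood apart.

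Of 13 listed neutrophil genes 6 were tested, 2 of these were negative (median 0.98) and 0 passed. Both labelled knockouts lay above both controls in 3 of the 6 and below them in 2. Over all genes 26.4% lay below, and the share lying above is not given, so these counts cannot be weighed. The summed level of the list was 14371 to 18448 in the labelled knockouts and 2607 to 8784 in the controls, without overlap. A sum weights the most abundant genes most and does not count neutrophils. Retnlg, also listed, had 0 reads in the female labelled knockout given IMQ. Lyz2, which neutrophils also express, lay on the lower side, opposite to that sum. Of 11 tested genes of Langerhans cells and MHC class II, 8 were negative (median -0.38) and 0 passed. Cd207 stood at 14935 and 12366 in the labelled knockouts given IMQ and at 18208 and 7813 in the controls, overlapping like Csf1r, and the female control was high for Cd207, Csf1r, Adgre1 and Cd14 alike. Of 6 tested T cell genes 5 were negative (median -0.33) and 0 passed. Of 8 tested keratinocyte genes 5 were negative (median -0.18) and 0 passed. Of 6 tested genes of dendritic cells other than Langerhans cells 2 were negative (median 0.07) and 0 passed. Their summed level was 311 to 359 in the labelled knockouts given IMQ and 324 to 395 in the controls, which overlapped. Haemoglobin genes, a sign of blood in the sample, were lower in the labelled knockouts, with summed levels of 69.6 and 89.4 normalised counts in the female and male labelled knockouts given IMQ and 156 and 129 in the controls. Untreated, these sums were 106 and 123 in the labelled knockouts and 185 and 160 in the controls, again without overlap. Hba-a1, the one of these genes that was tested and a near-identical copy of Hba-a2, was at -0.81 under IMQ (SE 0.23, limma adjusted p = 0.125). The part of these markers in the values of the 9 genes was not tested.

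**Figure D5:**
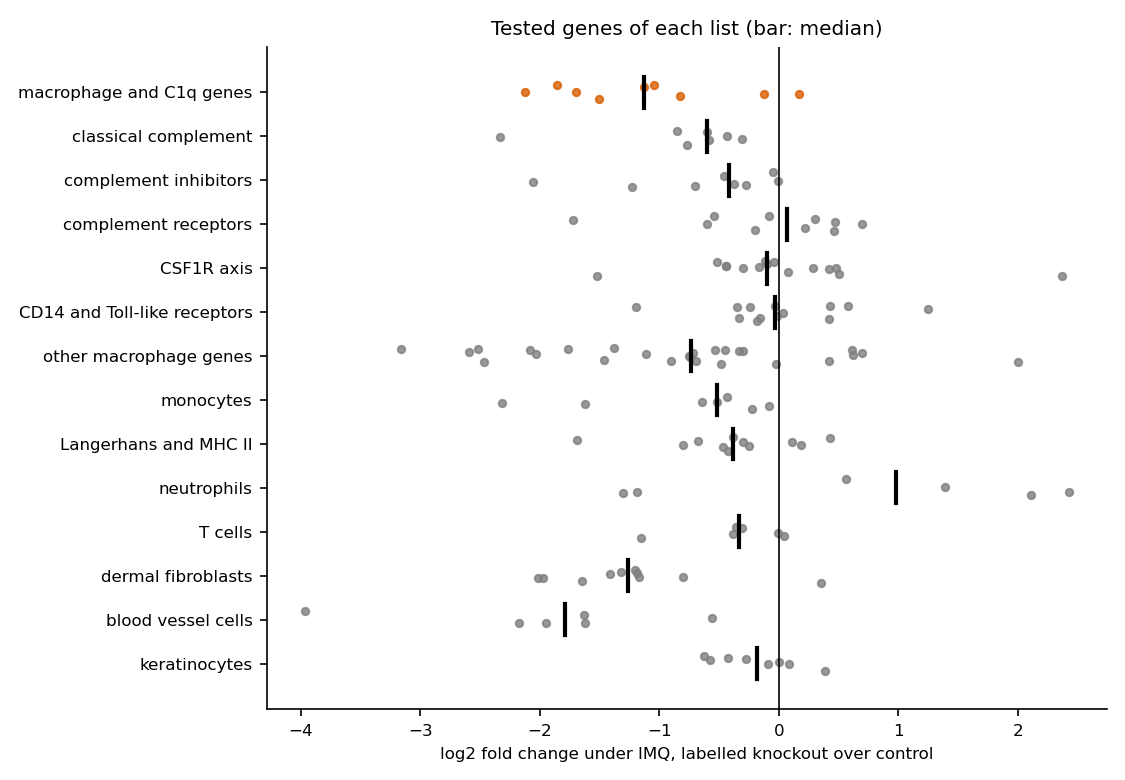
Log2 fold change under IMQ, labelled knockout over control (horizontal axis), of each tested gene in the lists named on the vertical axis, with a black bar at the list's median and vertical scatter for legibility. The macrophage and C1q genes have a median of -1.13, between the fibroblast genes at -1.26 and the other macrophage genes at -0.73, and the neutrophil genes lie at 0.98.

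Without a test, the genes whose pattern over the 8 libraries was most like that of the mean C1q level were sought among all tested genes, after each table was centred on its own mean. Members and predicted genes (symbols of Gm plus digits or ending in Rik) were left out of the ranking. The closest of the rest were Per3, a clock gene (Pearson r 0.982), Phka2, a subunit of phosphorylase kinase (0.978), Bbs2, Nxt2 and Zfp467. The members outside C1q gave 0.850 for Mrc1, 0.794 for Lyz2, 0.595 for Adgre1, 0.402 for Cd14, 0.175 for Csf1r and -0.382 for Cd68. Among these, Mrc1 and Lyz2 thus varied most like C1q, and Cd68 varied the other way. These are descriptions over 8 libraries that share groups, sexes and scaling.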

How the data were processed

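Per the labels' protocols, RNA of dispase-separated epidermis was made into stranded polyadenylated libraries and read as 100-bp pairs. The submitters' processing notes name STAR 2.5.2a, Trimmomatic 0.35, R 3.6.1, DESeq2 1.24.0 and the mm10 build. How reads were counted and genes filtered is not given in those notes. What the authors deposited is a normalised signal, namely counts over a library's size factor, in an untreated and an IMQ table, each scaled by itself. Each library's values were whole multiples (within 0.001 read) of a step, and division by it gave the recovered reads.

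Labelled knockouts were compared with controls by limma 3.58.1 (R 4.3.3) on log2(value + 1), a scale that understates the change of low genes. The 14614 genes with a mean of at least 10 over either table's 4 libraries entered, and 4 group means were fitted over all 8 libraries (4 residual degrees of freedom, trend and robust moderation, Benjamini-Hochberg adjustment, threshold 0.05). Values under IMQ and untreated were compared, without a test, on CPM from the recovered reads (TMM factors, 0.5 added). Alternatives used edgeR 4.0.16 and DESeq2 1.42.0 on recovered reads, other pseudocounts, filters and scaling, plain moderation, each table alone, a replicate block and each library left out. The replicate number is the sex of the animal. Same-sex libraries deviated together from their group means in all pairs of groups (correlation 0.145 to 0.463 across genes), so the block pairs libraries of the same sex. The fit was tested on simulated data. RPKM used exon lengths of GENCODE vM21, which held 16723 of the symbols in 1 gene model.

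The members and lists were chosen with earlier results of these data known. Outside the members, the text names up to 4 tested genes per list with the smallest unadjusted p, any gene called and leading markers of other cell types. It also names the 5 genes most like C1q, with predicted genes left out. Which of these are printed was decided after their values were seen. Of the genes that met this rule, 3 are not reported here.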

Additional observations from a re-analysis of the deposited data

Results flagged for a closer look

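For 2 members the genotype effect ran in opposite directions in treated and untreated skin, in both sexes. Mrc1 was lower in each labelled knockout than in the control of the same sex under IMQ and higher in each when untreated, and the difference of the effects was -2.61 on the log2 scale (limma adjusted p = 0.481). Adgre1 showed the same arrangement, with a difference of -1.47 (limma adjusted p = 0.476). For Mrc1 the untreated female pair was close, at 21.8 normalised counts in the labelled knockout and 19.9 in the control. Those values come from 21 and 23 reads, so the direction of that pair rests on the scaling. Neither difference passed the limma test, and the control genotype changed with the treatment.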

How the results depend on the processing

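Depth limits C1qb, C1qc and Mrc1 most, and 2 libraries per group limit every test. Members called under IMQ numbered 0 in the main limma fit, 3 with DESeq2, 1 with the replicate block and 0 to 1 when 1 library was left out (Lyz2, without the male labelled knockout given IMQ). Over all genes, 64 were called under IMQ, against 30 with edgeR, 1247 with DESeq2, 358 with the replicate block, 282 with edgeR and the block, 0 with plain moderation, 0 with each table alone and 0 to 299 when 1 library was left out. The 299 came without the male labelled knockout given IMQ. In untreated epidermis 0 genes were called, against 5 with a pseudocount of 5, 87 with DESeq2, 8 with the block, 6 with edgeR and the block, 8 with each table alone and 0 to 2 when 1 library was left out. For the difference of the effects 0 were called, and 98 with DESeq2. Members at least 2-fold apart between IMQ and untreated labelled knockouts numbered 4, then 2 with 2 CPM added, and 3 to 6 when 1 library was left out (5 to 7 in the controls). The cause of these changes was not tested.

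Signs turned when 1 library was left out for several log2 values. For labelled knockout over control, untreated, the ranges were -0.32 to 1.30 for Mrc1, -0.73 to 0.76 for C1qc, -0.58 to 0.42 for Cd14, -0.20 to 0.33 for Csf1r, -0.23 to 0.60 for C3 and -1.40 to 0.55 for C1qb. Under IMQ they were -0.51 to 0.27 for Csf1r, -0.046 to 0.39 for Cd68, -2.77 to 0.22 for Cfd and -2.59 to 0.14 for Serping1, and for the difference -0.58 to 0.21 for Csf1r. For IMQ over untreated they were -0.72 to 1.04 for Lyz2, -0.24 to 1.31 for Mrc1 and -0.087 to 0.41 for Cd68 in the labelled knockouts, and -0.31 to 0.59 for Adgre1 in the controls. The replicate block added Mrc1 and Ly96 to the genes called under IMQ among those named, and changed no other call. Of 1540 alternative values for single genes, 1480 kept their direction and side of the threshold.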
